A study of Bos taurus and Felis catus with 14 samples.

Results

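The mir-193 and mir-365 loci were examined as paralogous pairs in the microRNA call sets of cow (Bos taurus) and cat (Felis catus). Members were the predicted precursor loci whose name holds family mir-193 or mir-365, with any letter, copy number or suffix, while names starting with as-, which mark a locus on the opposite strand of a named one, were left out. This gave 8 of 1305 loci, 4 of 810 in the cow and 4 of 495 in the cat. The bovine set was called from 10 libraries of 3 Angus steers: iris, retina, optic nerve, penis, dental pulp, bone marrow, oral papillae and submandibular lymph node from 1 steer, with brain stem and corium of the foot from 1 further steer each. The feline set was called from 4 libraries, 2 of skin and 2 of skeletal muscle, from 3 neutered male domestic short hair cats aged 10 to 13 years, 1 of which gave both tissues. All libraries of a species were called together. Each species therefore had 1 set with no replicate, and positions carry no replicate error. The call sets used here hold positions without read counts, and the depth behind each locus and the differences between tissues were not analysed here.

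A microRNA is cut from a hairpin precursor, which leaves a product from its 5′ arm (5p) and one from its 3′ arm (3p), and the bases near the 5′ end of a product guide its pairing with messenger RNAs. In mammalian genomes hairpins of mir-193 lie beside hairpins of mir-365, and this arrangement occurs at separate places in the genome. The mir-193b and mir-365 pair has been studied in the differentiation of brown fat, miR-193a as a silenced tumour suppressor that targets the receptor KIT in leukaemia, and miR-365 in cartilage cells under mechanical load.

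Every member belonged to a pair of a mir-193 and a mir-365 locus on the same strand, and each species had 2 such pairs. Coordinates are those of the deposited files, and no source used here names their genome build. In the cow, bta-mir-193a lay at chr19:18824215-18824308 on the minus strand, and bta-mir-365-2 at chr19:18811282-18811348 on the same strand. In the cat, fca-mir-193a lay at NC_018736.2:19547660-19547719 and fca-mir-365 at NC_018736.2:19559828-19559926, both on the plus strand. The second bovine pair was bta-mir-193b at chr25:13339492-13339556 and bta-mir-365-1 at chr25:13344245-13344312 on the plus strand. Its feline counterpart was fca-mir-193b at NC_018738.2:29216264-29216366 and a further mir-365 locus at NC_018738.2:29211620-29211687, both on the minus strand. The name of this locus ends in the suffix that the files give to a locus of a known family without an annotated precursor, and it is called here the feline mir-365 locus beside fca-mir-193b. In all 4 pairs mir-193 came first along the strand and mir-365 lay downstream of it. The mir-193 loci carry the same letters in both species. The mir-365 loci carry no shared copy name, so they were matched by the mir-193 locus beside them and not by sequence.

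The gap between the precursor spans of bta-mir-193a and bta-mir-365-2 was 12866 nt, and that of fca-mir-193a and fca-mir-365 was 12108 nt. The gap of bta-mir-193b and bta-mir-365-1 was 4688 nt, and that of fca-mir-193b and the feline mir-365 locus beside it was 4576 nt. The pair with mir-193a was thus the wider of the 2 in both species, by 2.74 times in the cow and 2.65 times in the cat. At the common limit of 10 kb for a microRNA cluster, the mir-193b pair counted as a cluster in both species and the mir-193a pair in neither. Over all loci, 29.0% of the bovine and 33.3% of the feline loci had another locus within 10 kb. This share counts either strand and overlapping loci, unlike the pairs, and by it fca-mir-193a also had one, on the opposite strand.

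**Figure D1:**
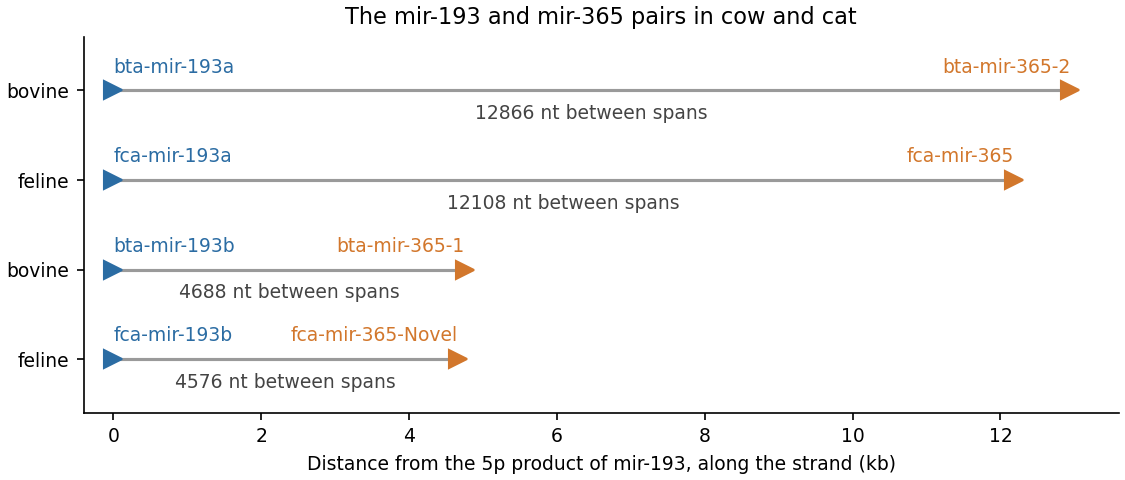
Position of mir-365 (orange) relative to mir-193 (blue) in the 4 pairs, drawn to scale along the strand; the x axis is the distance in kb from the start of the mir-193 5p product, and arrowheads point downstream. The mir-193a pairs span over 12 kb and the mir-193b pairs under 5 kb in both species.

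The cat gap was shorter than the cow gap in both pairs. The feline minus bovine difference was -758 nt in the mir-193a pair, a ratio of 0.941, and -112 nt in the mir-193b pair, a ratio of 0.976. Measured between the starts of the 5p products, which do not depend on where the precursor spans end, the distances were 12942 nt and 12187 nt for the mir-193a pair and 4753 nt and 4660 nt for the mir-193b pair in cow and cat. The same comparison was made for 47 other neighbouring pairs of same-named loci on 1 strand, at most 50 kb apart in both species. They were neighbours among the loci that carry 1 name in both species, so loci without a shared name can lie between them. In these the ratio ran from 0.564 to 1.87 with a median of 1.01, 36 lay between 0.9 and 1.1, and 44.7% had the shorter gap in the cat. Both member pairs lay within that central range, and their shared direction is one that a large share of the other pairs also had. A gap of over 10 kb in both species, as in the mir-193a pair, was present in 5 of the 47 others (10.6%), among them mir-1306 with mir-185 and mir-379 with mir-495. Whether these gaps were free of other predicted loci was not examined.

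**Figure D2:**
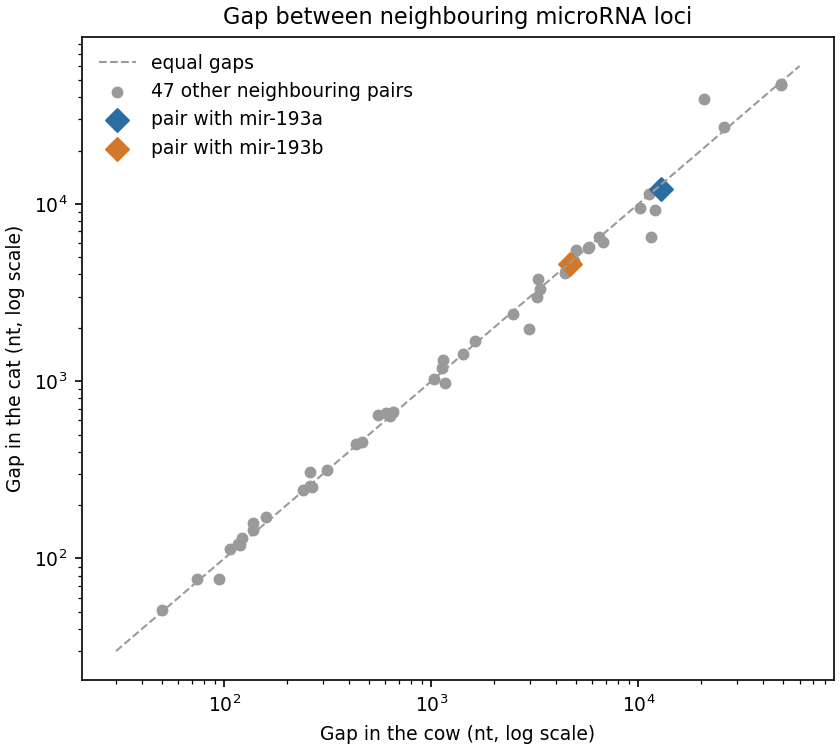
Gap between neighbouring loci in the cow (x axis, nt, log scale) and the cat (y axis, nt, log scale), with a point for each of 47 other neighbouring same-named pairs (grey), diamonds for the member pairs and a dashed line for equal gaps. Both diamonds lie just under the line, at ratios of 0.941 and 0.976. Loci without a shared name can lie between the loci of a grey pair.

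Families with paralogous pairs of their own gave mostly narrower gaps. The mir-181 pairs, which combine copies of 1 family, had gaps of 116 and 120 nt (mir-181a-1 with mir-181b-1), 1131 and 1185 nt (mir-181a-2 with mir-181b-2), and 119 nt in both species (mir-181c with mir-181d). For mir-29, bta-mir-29a and bta-mir-29b-1 lay 288 nt apart, and fca-mir-29a lay 267 nt from the next feline mir-29 locus. The gap after bta-mir-29b-2 was 453 nt and that after fca-mir-29b-2 was 488 nt. The mir-30 gaps lay on either side of those of the members, and none lay between them. bta-mir-30c and bta-mir-30e were 3061 nt apart, and fca-mir-30c-1 and fca-mir-30-Novel2 were 2956 nt apart. bta-mir-30d and bta-mir-30b were 4373 nt apart, and fca-mir-30b and fca-mir-30-Novel4 were 4426 nt apart. The widest bovine one, bta-mir-30f with bta-mir-30a, had 37281 nt. The widest feline one, fca-mir-30c-2 with fca-mir-30-Novel3, had 25233 nt. Distinct gaps for paralogous pairs of 1 kind were therefore also present in mir-29, mir-181 and mir-30. The same held for other neighbouring pairs that, like the members, join different families. In cow and cat, mir-1-1 and mir-133a-1 lay 10158 and 9435 nt apart, and mir-1-2 and mir-133a-2 lay 3254 and 2989 nt apart. For mir-27b with mir-24-1 the gaps were 435 and 443 nt, and for mir-27a with mir-24-2 they were 94 and 77 nt.

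All 8 members had exactly 2 products, one from each arm. Over all loci, both arms were present in 72.5% of the bovine and 65.7% of the feline loci. Of 162 other loci that carry 1 name in both species, 137 had both arms in both. The lengths were the same in cow and cat: both products of each mir-193 locus were 22 nt long, and each mir-365 locus had 23 nt on the 5p side and 22 nt on the 3p side. Among loci with both arms, 22 and 22 nt occurred in 23.3% of bovine and 26.5% of feline loci, and 23 and 22 nt in 10.7% and 6.46%. For 137 other loci that carry 1 name in both species and have both arms, 60.6% had equal product lengths on both arms. These were matched by name alone, whereas the mir-365 members were matched by the mir-193 locus beside them. The 2 mir-365 loci of a species may share reads. The authors' pipeline divides a read that matches several places between them, and whether reads of the copies can be told apart was not tested.

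**Figure D3:**
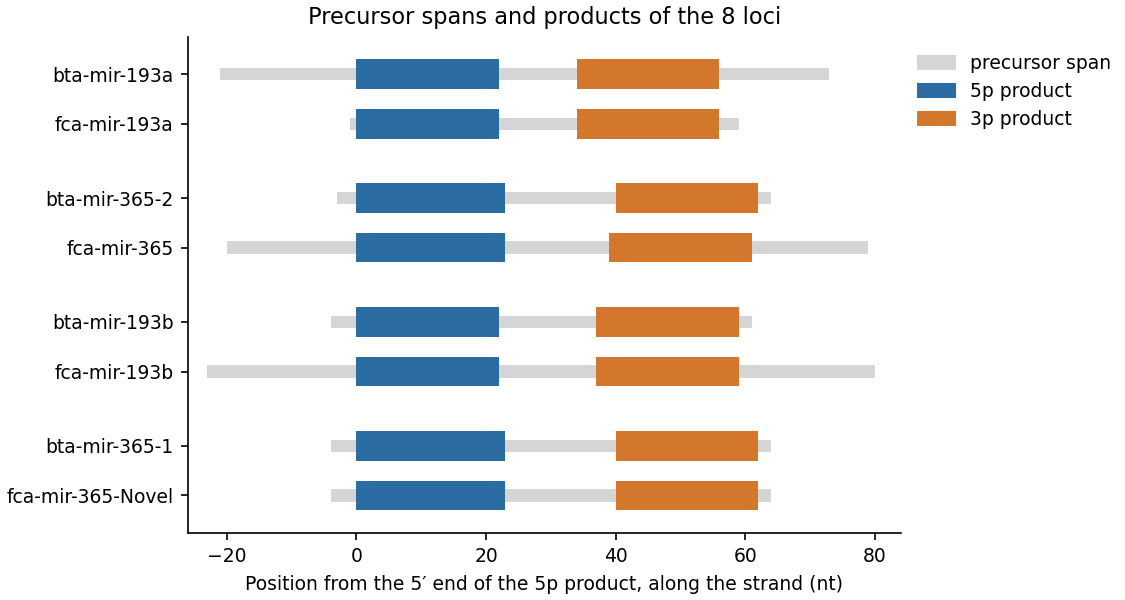
Precursor span (grey), 5p product (blue) and 3p product (orange) of the 8 loci, aligned at the 5′ end of the 5p product; the x axis is the position in nt along the strand. The 3p products start at the same position in cow and cat in 3 of the 4 matched hairpins and 1 nt apart in the mir-365 hairpin beside mir-193a, while the grey span reaches 17 to 23 nt past both products in 3 loci and 1 to 4 nt in the other 5.

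The distance between the arms separated the families and the mir-193 copies. From the 5′ end of the 5p product to the 5′ end of the 3p product, mir-193a measured 34 nt in cow and cat and mir-193b 37 nt in cow and cat. The mir-365 locus beside mir-193b measured 40 nt in both species. The mir-365 locus beside mir-193a measured 40 nt in the cow and 39 nt in the cat, the only one of the 4 matched hairpins whose spacing differed between species. Between the end of the 5p and the start of the 3p product lay 12 nt in mir-193a, 15 nt in mir-193b and 17 nt in mir-365, except 16 nt in fca-mir-365. Equal spacing in cow and cat was found in 3 of the 4 matched hairpins and in 78.8% of the 137 other same-named loci. Of these others, 16 differed by 1 nt and 13 by 2 nt or more, up to 4 nt.

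The mir-193 copies differed from each other by 3 nt in each species, and the mir-365 copies by 0 nt in the cow and 1 nt in the cat. Spacing within the mir-29 loci ran from 38 to 41 nt in both species, a range of 3 nt. That of the mir-181 loci ran from 38 to 41 nt in the cow and 38 to 43 nt in the cat, and that of the mir-30 loci with both arms from 38 to 42 nt in both. The spacing of mir-193a, at 34 nt, and that of mir-193b, at 37 nt, both lay below every mir-29, mir-181 and mir-30 locus with both arms. Over all loci with both arms the median was 38 nt in both species, and 10.9% of bovine and 9.54% of feline loci had 34 nt or less. The 40 nt of mir-365 was met or exceeded by 33.6% and 35.4%.

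The precursor spans, in contrast to the products, differed between species. bta-mir-193a spanned 94 nt and fca-mir-193a 60 nt, 34 nt less in the cat. bta-mir-365-2 spanned 67 nt and fca-mir-365 99 nt, and bta-mir-193b spanned 65 nt and fca-mir-193b 103 nt, so these were longer in the cat by 32 and 38 nt. bta-mir-365-1 and the feline mir-365 locus beside fca-mir-193b both spanned 68 nt. The difference lay outside the products. bta-mir-193a had 21 nt before its 5p and 17 nt after its 3p product, fca-mir-365 had 20 and 18 nt, and fca-mir-193b had 23 and 21 nt. The other 5 members had 1 to 4 nt on either side. No matched hairpin was long in both species.

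Such spans were not particular to the members. At least 15 nt on both sides was found in 12.1% of bovine and 8.31% of feline loci with both arms, and at most 5 nt on both sides in 78.7% and 84.3%. In the 137 other same-named loci the span lengths fell into separate groups, 120 that differed by at most 19 nt and 17 (12.4%) that differed by 29 to 44 nt. Of the 17, 12 were longer in the cow and 5 in the cat. The members had 3 of 4 hairpins in the second group, at 32 to 38 nt, a larger share from few hairpins and without a test. The miRWoods caller tries several spans for a locus, and which kind was chosen for each member was not tested.

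**Figure D4:**
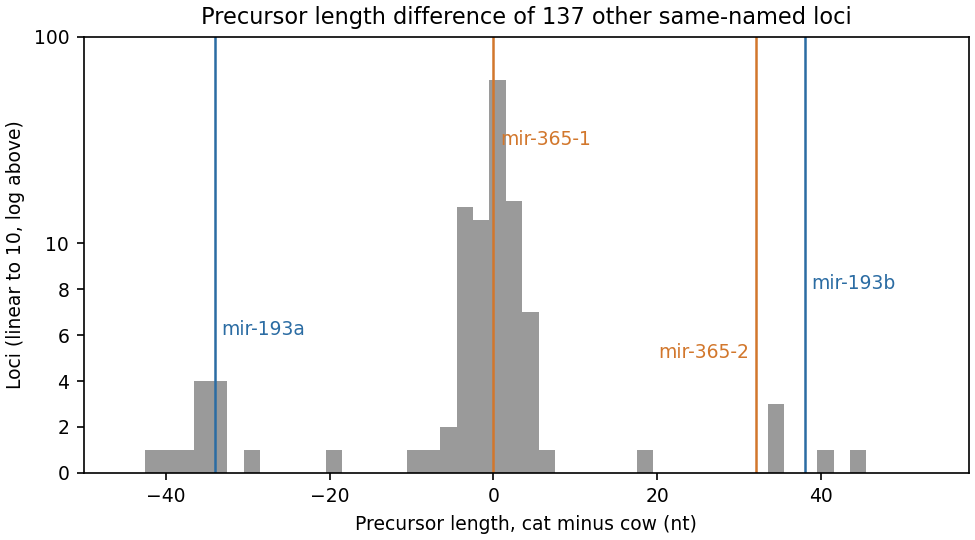
Precursor length in the cat minus that in the cow (x axis, nt) for 137 other same-named loci (grey bars; the y axis counts loci and is linear to 10 and logarithmic above), with lines for the matched mir-193 (blue) and mir-365 (orange) hairpins, named as in the cow. The mir-365-1 hairpin lies at 0, and 118 of the 137 other loci differ by 10 nt or less. The other 3 hairpins lie at -34, 32 and 38 nt beside the smaller outer groups.

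With 1 exception the pairs lay apart from other predicted loci. The exception was as-fca-mir-193a, which overlapped fca-mir-193a on the opposite strand over 60 nt. Such an overlap was present in 6.87% of feline and 6.17% of bovine loci, and no bovine member had one. Around the bovine mir-193a pair the nearest other locus was bta-Novel86, on the opposite strand, 52456 nt from bta-mir-365-2, and the nearest on the same strand was bta-mir-144, 1972727 nt from bta-mir-193a. In the cat the nearest same-strand loci were a mir-451 locus at 1725812 nt and fca-mir-144 at 1725978 nt from fca-mir-193a. mir-144, a microRNA of red blood cell precursors, was thus upstream of mir-193a on its strand in both species. The nearest locus to the bovine mir-193b pair was bta-mir-484, 831736 nt from bta-mir-365-1. Nearest to the feline mir-193b pair was fca-Novel150, 2894664 nt from fca-mir-193b.

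The order of microRNA families on either side of both pairs was shared by cow and cat. Families with 1 locus on both matched sequences were compared by order and strand, and the longest unbroken run around each pair was taken. Around the mir-193a pair 10 families in a row, both members included, kept their order with all strands inverted together: mir-142, mir-301, mir-21, mir-365, mir-193, mir-144, mir-423, mir-22, mir-132 and mir-212. mir-21, a microRNA known to be raised in many tumours, lay 7.79 Mb from mir-193a in the cow and 7.27 Mb in the cat on the mir-365 side. mir-132 lay 4.83 and 4.84 Mb away on the other side. Bovine chromosome 19 and its feline counterpart held 19 such families, and the other 9 were not part of the run. Around the mir-193b pair all 8 shared families kept their order with strands inverted: mir-1842, mir-193, mir-365, mir-2387, mir-106, mir-93, mir-25 and mir-339. The mir-106b, mir-93 and mir-25 loci, a cluster within the cell cycle gene MCM7 in mammals, lay 23.6 Mb from mir-193b in the cow and 21.9 Mb in the cat. The strand of a whole sequence is a convention of its assembly, so an inverted order is the same order read from the other end.

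**Figure D5:**
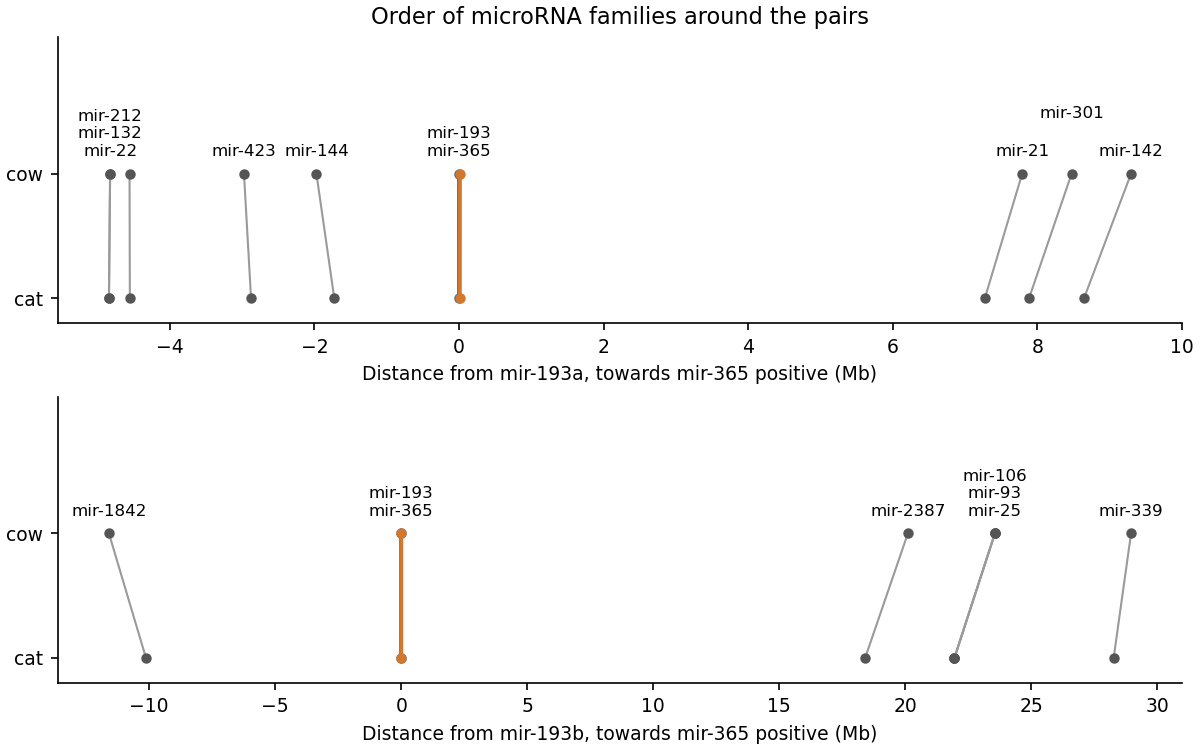
Families of the longest unbroken run shared by cow (upper points) and cat (lower points) around the mir-193a pair (upper panel) and the mir-193b pair (lower panel); the x axis is the distance from mir-193 in Mb, positive on the side of mir-365, and lines join the same family. The upper panel shows 10 of the 19 shared families and the lower panel all 8; lines of the upper panel do not cross because the run was chosen for its order.

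The RefSeq gene table for the bovine assembly ARS-UCD2.0, used here for names and neighbours alone, lists 5 genes of these families, and 4 of them had a locus of that name in the bovine set. MIR193B and MIR365-1 lie inside the same long non-coding gene, LOC100849865, between MRTFB, which encodes a cofactor of serum response factor, and PARN, which encodes a poly(A) ribonuclease. MIR365-2 lies inside the non-coding gene LOC132343021, MIR193A lies in none, and both have COPRS and RAB11FIP4 as the nearest coding genes. MIR2333 is listed between MIR365-2 and MIR193A, and no locus of that name was predicted. The fifth gene, MIR193A-2, lies inside ZNF623 on another chromosome, and it too had no locus of that name in the bovine set.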

How the data were processed

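Small RNA libraries of 10 bovine and 4 feline tissue samples were sequenced by the authors, who trimmed reads with cutadapt 1.15 and aligned them with Bowtie 1.2.11, leaving out reads that matched more than 10 positions, per the labels and the study's methods. The authors called loci with miRWoods, a random forest method, on all libraries of a species together. The deposited tables give start and end positions of precursors and products, with an empty score field and no counts. Their genome builds are not given in the sources used. Columns of per-sample values were absent.

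Positions were read with Python 3.11.15, and figures drawn with matplotlib 3.10.9. Gaps are nt between spans, and offsets run along the strand. The functions for positions within a hairpin and for the gap to a neighbour recovered 500 of 500 simulated hairpins. The simulated neighbours never overlapped, and pairing, product to product distances, nearest neighbours and family order were not simulated. No test was run, since each species has 1 set. Members, lists and the comparison families were chosen with earlier results of these data known. All members were described with their positions. Other loci were named as comparison pairs, other neighbouring pairs, nearest neighbours, families known from fat, or families in the order around the pairs, the last added after the positions were seen. RefSeq names came from ARS-UCD2.0, with no coordinates taken from it. Alternative names, distances, strands and flank limits were tried.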

Additional observations from a re-analysis of the deposited data

Results flagged for a closer look

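A locus outside the comparisons, as-fca-mir-193a, lay on the strand opposite to fca-mir-193a at NC_018736.2:19547642-19547730 and had 2 products of 22 nt each. It was singled out because its name starts with as-, which the choice of members left out, and because it carries products. Its span of 89 nt covered all 60 nt of fca-mir-193a. Its 5p product overlapped the 3p product of fca-mir-193a by 17 nt, and its 3p product overlapped the 5p product by 20 nt. The spacing from 5′ end to 5′ end was 41 nt, against 34 nt on the sense strand. Names starting with as- were given to 5 of 495 feline and 22 of 810 bovine loci, none of the latter at a member. Loci overlapped by a locus on the opposite strand made up 6.87% of the feline and 6.17% of the bovine set. The number of reads behind the antisense products was not analysed here.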

How the results depend on the processing

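Start to start, the mir-193a pair measured 12960 nt (cow) and 12168 nt (cat), and the mir-193b pair 4753 and 4679 nt. Product to product these were 12942, 12187, 4753 and 4660 nt. Cat minus cow was then -792 and -74 nt from start to start and -755 and -93 nt between products, shorter in the cat in each case. With a cluster distance of 1 kb 0 pairs, with 50 kb 2 pairs of either species were clusters, and with 5 kb 1 pair, as with 10 kb. On the same strand alone the nearest other locus of the mir-193a pair moved to 1972727 nt (cow) and 1725812 nt (cat, from 0 nt for the overlapping antisense locus). With a flank limit of 18 nt, added after seeing the data, 0 bovine members were long, against 1 at 15 nt. Product to product, also added then, 22 of the other neighbouring pairs were shorter in the cat, against 21. Counting as- names gave 5 feline members and plain names alone 3, against 4. Counts of members with both arms and the spacing differences did not change under the alternatives tried. Cow and cat values were compared per matched hairpin and pair, and no paired test was run because each species has 1 call set. The limits are 1 call set per species, read depth not analysed here, feline tissues (skin and muscle) unlike the bovine ones, and mir-365 copies matched by neighbour alone.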

Other observations

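Because mir-193b and mir-365 are known from brown fat, 13 other microRNA families described in brown or beige fat were counted in both sets. All but mir-203 had a locus in each species, with 26 bovine and 30 feline loci. All 26 bovine loci had both arms, against 22 of the 30 feline loci. Most of the difference lay in mir-378, with 2 bovine loci that both had products from each arm and 6 feline loci of which 1 had. The feline mir-155 locus, a microRNA of immune cells, had 1 arm, and the bovine one had both. The muscle family mir-133 had 3 bovine loci and 4 feline ones, of which 3 had both arms. Over all loci both arms were present in 72.5% of the cow and 65.7% of the cat set.

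Among the 137 other same-named loci, 23 had long flanks in the cow and 17 in the cat, and 11 of these had them in both species. The 4 matched mir-193 and mir-365 hairpins had long flanks in 1 species each or in neither.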
